A study of Homo sapiens with 3 samples.

Results

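The subject is 8 genes that mark neuroendocrine differentiation: UCHL1, CHGA, CHGB, SCG2, SCG3, ENO2, SYP and INSM1. They were taken by gene symbol and all 8 were found among the 15466 symbols of the count table. The genes were chosen by name with earlier ratios of these same libraries in view, so every ratio below is a description of the values that chose them and supports nothing further. The study transfected 22Rv1, a human prostate cancer cell line, with plasmid for the V1 or V4 transcript of MLPH, or with an empty vector. The time of 48 h and the dose of 20 μg of plasmid are given for the V1 and V4 samples. MLPH encodes melanophilin, which tethers melanosomes to the cell's motor proteins. The series has 3 samples, 1 per group. The groups described here are 22Rv1 with MLPH transcript V1 and 22Rv1 with MLPH transcript V4, and both carry an MLPH plasmid. The labels state no promoter for the plasmid and no share of transfected cells. The remaining column of the table names no transfection. It was not used, and no value over the empty vector is given.

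Neuroendocrine cells store peptide hormones in dense-core granules and release them when stimulated. Granins, the acidic proteins encoded by CHGA, CHGB, SCG2 and SCG3, pack these granules. SYP is a membrane protein of small secretory vesicles, ENO2 is the neuronal form of the glycolytic enzyme enolase, INSM1 is a transcription factor that directs neuroendocrine differentiation, and UCHL1 is a deubiquitinating enzyme abundant in neurons. In the prostate such markers appear in scattered normal cells and in tumours that have escaped hormone therapy.

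The deposited values are read counts per gene, with totals of 9253399 (V1) and 9609381 (V4). Levels are given as CPM, which are counts scaled to the library total. Of the 8 genes, 6 had a mean of at least 1 CPM and entered the comparison with 8840 kept genes. The other 2, CHGA and INSM1, are defining markers of neuroendocrine cells, so the set as labelled was seen only in part. With 1 library per group there was no replicate check and no test. Each ratio of V4 over V1 uses counts scaled by TMM, and so can differ slightly from the quotient of the CPM values. It has a 95% exact (Clopper-Pearson) conditional binomial interval that covers counting error between these libraries only, and not differences between cultures or amplified copies of a molecule. A gene was called higher or lower when its ratio, with a prior count of 2, was at least 1.5-fold and its interval excluded 1. A gene under 1 CPM in 1 library passes the 1 CPM filter only through the other library, which fixes the direction of its difference. MLPH had 7219 and 7773 counts, which does not separate the transcripts and so does not check which plasmid a library received.

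The bases just before the start of UCHL1, SCG3 and ENO2 are shown because these genes compared differently between the libraries: one was far lower with V4, one had a ratio of 1.41 that was not called, and one had an interval that included no change. Each window holds the 250 bases before the RefSeq start on build GRCh38.p14, printed 5′ to 3′ along the gene. Capitals mark CpG dinucleotides, the sites where vertebrate DNA is methylated. All 3 windows lie on the plus strand, at chr4:41256678-41256927, chr15:51681253-51681502 and chr12:6914330-6914579. GENCODE release 29 starts other transcripts of these genes inside the windows.
UCHL1: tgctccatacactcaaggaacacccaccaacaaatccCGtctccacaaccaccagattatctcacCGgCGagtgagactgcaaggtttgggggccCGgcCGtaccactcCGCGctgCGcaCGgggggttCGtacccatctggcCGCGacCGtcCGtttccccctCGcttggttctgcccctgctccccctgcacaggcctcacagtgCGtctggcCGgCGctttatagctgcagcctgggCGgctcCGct
SCG3: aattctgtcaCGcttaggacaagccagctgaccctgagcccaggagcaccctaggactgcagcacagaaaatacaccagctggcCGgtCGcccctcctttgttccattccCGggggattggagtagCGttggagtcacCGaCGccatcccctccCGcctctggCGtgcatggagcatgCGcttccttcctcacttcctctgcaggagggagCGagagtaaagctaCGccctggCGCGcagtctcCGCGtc
ENO2: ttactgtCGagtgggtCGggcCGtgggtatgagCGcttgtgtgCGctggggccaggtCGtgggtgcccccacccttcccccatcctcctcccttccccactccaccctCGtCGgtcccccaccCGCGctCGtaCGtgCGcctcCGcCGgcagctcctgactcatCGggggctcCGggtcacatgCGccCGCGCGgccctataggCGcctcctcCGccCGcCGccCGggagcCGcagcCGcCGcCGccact
The UCHL1 window held 20 CpG sites, that of SCG3 held 16 and that of ENO2 held 30. The median over 35116 RefSeq promoter windows of the same length was 11, and 32.4% of them held at least as many CpG sites as UCHL1. A window was found for 5 of the 8 genes. No DNA methylation was measured in the series.

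The windows were searched for 6 motifs on both strands. The GC box, GGGCGG, was found in UCHL1 at bases 13 to 8 before the start, and in ENO2, CHGA and SYP, against 42.6% of all windows. The TATA box, TATAAA, lay on the opposite strand of UCHL1 at bases 29 to 24, against 10.7% of all windows. CHGA held the cyclic AMP response element TGACGTCA at bases 54 to 47, which 1.65% of all windows hold. ENO2 held an AP-1 site, TGANTCA, at bases 94 to 88, against 6.57%. The NF-kappaB core GGACTTTCC (0.333% of all windows) and the stretch CAGCACC of RE1 (6.16%), the element bound by a repressor of neuronal genes, were in none of the 5 windows. SCG3 held none of the 6 motifs. No searched motif overlapped another in these windows. A match of letters is a description, not evidence that a factor binds.

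UCHL1 differed far more than the other 5 kept genes of the set. Cells given V1 showed 1933 counts (209 CPM), against 34 counts (3.54 CPM) in those given V4. The level with V4 was 57.6-fold lower (interval 41.1 to 83.5), a log2 ratio of -5.77. UCHL1 was the 1 gene of the 6 kept that was called, and it was lower. Among all kept genes 7.10% were called lower and 5.50% higher. Only 5 of the 8840 kept genes had a lower ratio than UCHL1. Per length, UCHL1 went from 132 to 2.24 CPM per kilobase of its longest transcript, so that it stood above ENO2 (105 CPM per kilobase) in the V1 library and below every other kept gene of the 8 in the V4 library.

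No gene as abundant as UCHL1 in the V1 library had as low a ratio. There 932 genes, UCHL1 included, reached its level or more. The next lowest ratio among them belonged to FTL, the ferritin light chain gene, with 13523 and 8219 counts and a log2 ratio of -0.74. Of 5232 other genes with a mean of at least 10 CPM, 5 were taken for having the ratios nearest to that of UCHL1. These were AKR1B1, IL8, MMP14, TGFBI and EREG. They encode aldose reductase, a neutrophil chemokine, a membrane metalloproteinase, a matrix protein induced by TGF-beta and a ligand of the EGF receptor. AKR1B1 had 376 counts with V1 and 3 with V4, and IL8 had 435 and 10. MMP14 had 496 and 3, TGFBI had 284 and 8, and EREG had 193 and 5. Their log2 ratios ran from -6.65 to -4.82. Likeness was measured by the distance between log2 levels centred on each gene's mean, which with 2 libraries depends on the ratio alone. All 5 had at most 1.04 CPM with V4, so they passed the 10 CPM filter only through the V1 library. Their low ratios are how they were chosen and support nothing further.

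**Figure D1:**
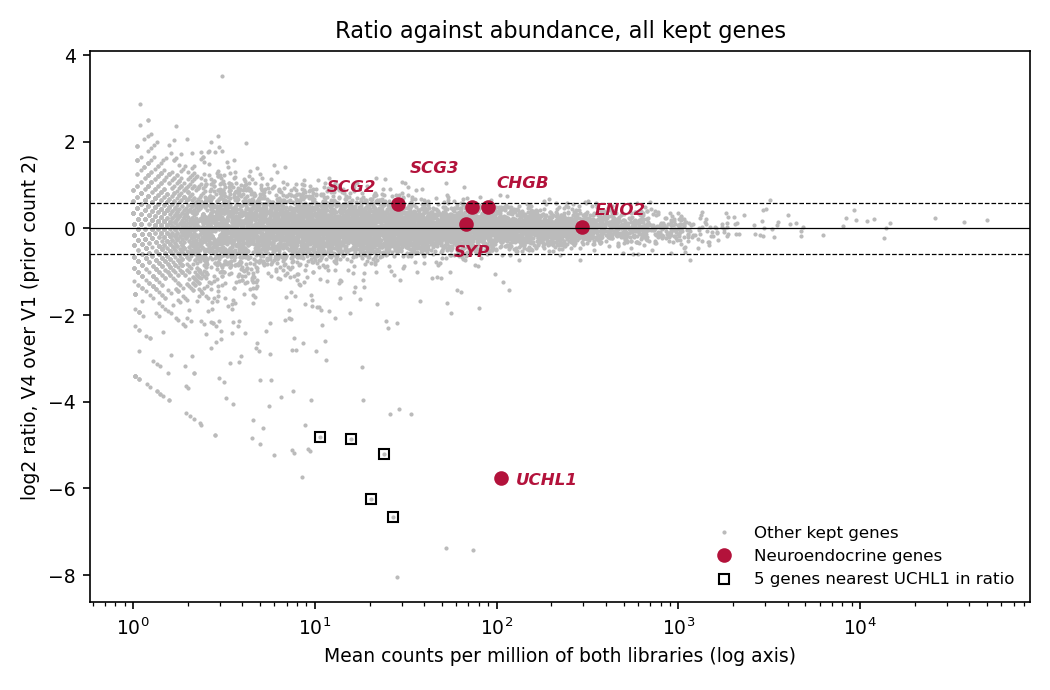
Each point is 1 of 8840 kept genes, with its mean CPM over both libraries on a log axis and its log2 ratio of V4 over V1 on the vertical axis; dashed lines mark 1.5-fold. UCHL1 lies at -5.77, apart from the other genes of its abundance, while CHGB, SCG2 and SCG3 lie between 0.50 and 0.56 and SYP and ENO2 near 0.

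Among markers of other cell types, 2 stromal genes were far lower with V4, as UCHL1 was. Of 9 stromal markers 5 had a row, and their summed level was 167 CPM with V1 and 4.995 CPM with V4. COL1A2 and COL3A1, which encode fibrillar collagens, had 976 and 526 counts with V1 against 4 and 0 with V4. Both were kept only through the V1 library. LUM, another matrix gene of fibroblasts, had 33 and 44 counts, PDGFRB had 6 and 0, and THY1 was at 0 in both. Of 6 leukocyte markers 5 had a row, and their summed level was 10.5 and 6.97 CPM. Most of it was CD68, the 1 kept, at 86 and 59 counts (ratio 0.677, interval 0.477 to 0.953). None was called, and the defining markers PTPRC and CD3E were at 0 in both libraries. The 7 basal prostate markers summed to 110 and 74.5 CPM over the 5 with a row, most of it CDH3 (993 and 666 counts, called lower). DST was called higher, at 16 and 35 counts (ratio 2.16, interval 1.16 to 4.17). KRT5, at 8 and 15 counts, was not called. It was under 1 CPM with V1 and so was kept only through the V4 library. The median log2 ratio of the 3 kept basal genes, 0.75, is the value of KRT5 itself. Of all kept genes 7.10% were called lower and 5.50% higher. The CDH3 call ended with the libraries thinned to equal depth (log2 ratio -0.58) or a GC trend removed (-0.53). The DST call ended with a transcript length trend removed (0.62), because its interval then included 1. In bulk RNA, fewer cells with a transcript and less of it per cell cannot be told apart. The part of these other cell types in the UCHL1 difference was not tested.

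The genes beside UCHL1 on the chromosome were read next. Of the 12 nearest protein-coding genes in RefSeq order, 6 on each side, 7 had a row and 3 were kept. NSUN7, an RNA methyltransferase family gene that is the second neighbour on one side, had 49 counts with V1 and 8 with V4, 6.21-fold lower (interval 2.92 to 15.2). On the other side DCAF4L1 had 83 and 87 counts and the zinc transporter gene SLC30A9 had 3179 and 3841, a ratio of 1.19 (interval 1.14 to 1.25). LIMCH1, the nearest gene on that side, had 2 and 5 counts. Of the 3 kept neighbours, 1 was thus called lower and 2 were not called, against 7.10% lower among all kept genes. NSUN7 was under 1 CPM with V4 and so was kept only through the V1 library. The antisense gene UCHL1-AS1 overlaps UCHL1 by 315 bases in GENCODE, and because the sources used here do not give the counting's strand setting, reads from it cannot be told apart.

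None of the other ubiquitin genes compared was called. Of 10 genes in a list of the UCHL family, related deubiquitinases and ubiquitin itself, 7 had a row and were kept. UCHL1 was lower, 0 were higher and 6 were neither, with a list median of -0.01 against -0.00 for all kept genes. Of all kept genes 7.10% were called lower and 5.50% higher. UCHL3, the closest relative of UCHL1, had 345 counts with V1 and 279 with V4, a ratio of 0.798 (interval 0.679 to 0.937). UCHL5, a deubiquitinase of the proteasome, had 256 and 372, a ratio of 1.43 (interval 1.22 to 1.69), and USP14, which also acts at the proteasome, had 240 and 338. BAP1, a nuclear family member and tumour suppressor, had 2225 and 2239 counts.

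Of the granins, CHGB, SCG2 and SCG3 had ratios above 1 that did not reach a call. CHGB had 697 counts (75.3 CPM) with V1 and 1003 (104 CPM) with V4, a ratio of 1.42 (interval 1.29 to 1.57). SCG2, which encodes the precursor of secretoneurin, had 216 (23.3 CPM) and 324 (33.7 CPM), a ratio of 1.48 (interval 1.24 to 1.77). SCG3, whose protein helps direct chromogranin A into granules, had 571 (61.7 CPM) and 819 (85.2 CPM), a ratio of 1.41 (interval 1.27 to 1.58). All 3 intervals excluded 1. Their ratios were not rare: 9.91% of kept genes had a log2 ratio at or above that of CHGB, 8.46% at or above that of SCG2 and 10.1% at or above that of SCG3. Antisense transcripts overlap SCG3, so its counts have the same limit as those of UCHL1.

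CHGA, the granin most used in diagnosis, had 2 counts with V1 and 1 with V4, too few for a fold. A count of 0 would still allow up to 0.324 CPM with V1 and 0.312 CPM with V4, and the CHGA levels of 0.216 and 0.104 CPM lay under those limits. Low counts in this table do not show that RNA was absent. PKM, a pyruvate kinase gene that growing cells use, was listed at 0 and 3 counts, and EZH2, a chromatin regulator of dividing cells, at 8 and 10. The CHGA and INSM1 values were therefore read as counts of the table only.

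**Figure D2:**
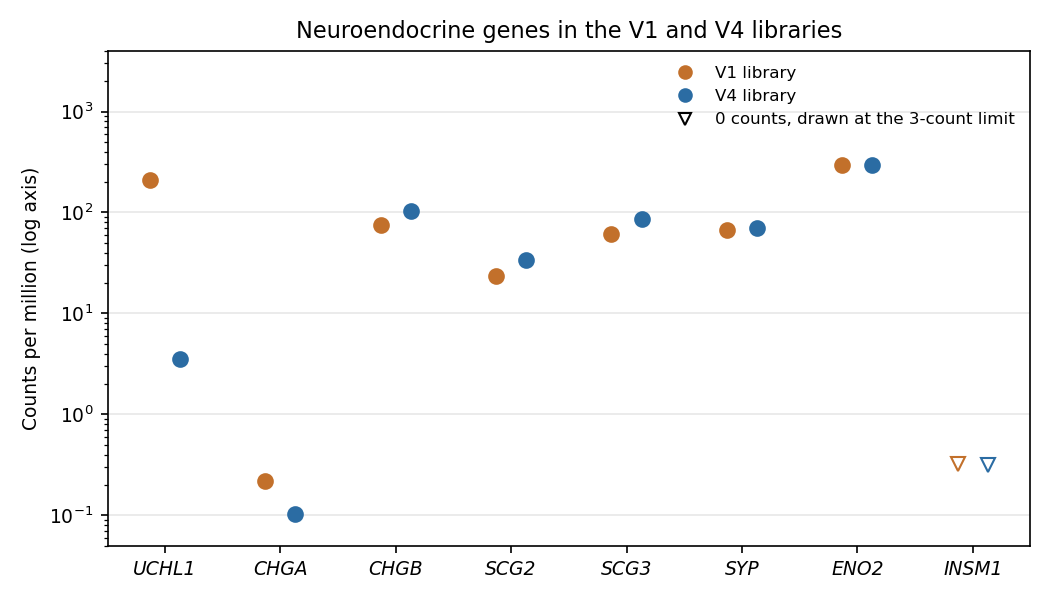
Points give the level of each of the 8 genes in either library, in CPM on a log axis; open triangles stand for 0 counts, drawn at the level that 3 counts would give. UCHL1 drops from 209 to 3.54 CPM, the V4 points of CHGB, SCG2 and SCG3 lie above the V1 points, SYP and ENO2 nearly coincide, and CHGA and INSM1 lie under 1 CPM.

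The wider granin list had 7 genes, of which 6 had a row and 4 were kept. None of the 4 was called, which is near the shares of all kept genes, 5.50% called higher and 7.10% lower. Their median log2 ratio was 0.50, against -0.00 for all kept genes. CHGB, SCG2 and SCG3 are among the 4 and were chosen with earlier ratios of these libraries in view. The 4 did not share a direction. PCSK1N, which encodes proSAAS, an inhibitor of prohormone convertase, had 2352 counts with V1 and 1814 with V4, a ratio of 0.761 (interval 0.715 to 0.809). With a trend on transcript GC content removed its log2 ratio was -0.07 and its interval included no change, while CHGB, SCG2 and SCG3 stayed between 0.39 and 0.62 over 10 alternatives. PCSK1N was the most abundant of the list per length, at 242 and 180 CPM per kilobase, against 29.5 and 40.9 for CHGB, 18.6 and 25.7 for SCG3 and 9.06 and 13.1 for SCG2. SCG5, a chaperone of prohormone convertase 2, had 0 and 1 counts.

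The list of prohormone processing and granule biogenesis also holds PCSK1N, a convertase inhibitor, and SLC18A2, a monoamine transporter. Of its 17 genes 11 had a row and 6 were kept, with 0 calls and a median of 0.17. Among all kept genes 5.50% were called higher and 7.10% lower, so 0 calls among 6 genes is near those shares. PAM, which amidates peptide hormones, had 329 and 233 counts, a ratio of 0.699 (interval 0.588 to 0.829), which was called lower once a trend on transcript length or on GC content was removed. CPE, carboxypeptidase E, had 1061 and 1135, a ratio of 1.06 with an interval from 0.97 to 1.15. CPD, a related carboxypeptidase, had 353 and 429, a ratio of 1.20 (interval 1.04 to 1.38). The convertase gene PCSK1 had 2 and 0 counts.

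SYP, the vesicle membrane marker, had 615 counts (66.5 CPM) with V1 and 672 (69.9 CPM) with V4. The ratio was 1.08 and its interval, 0.965 to 1.20, included 1, so a difference was not detectable at this depth. The interval excluded no change with a transcript length trend removed (log2 ratio 0.17, from 0.0074 to 0.33) or a GC trend removed (0.24, from 0.08 to 0.40). SYP-AS1, an antisense gene, overlaps SYP by 1294 bases, with the same limit on the counts as for UCHL1. In the list of synaptophysin relatives and vesicle fusion genes, 17 of 22 had a row and 13 were kept. Of these 2 were higher, 1 lower and 10 neither, against 5.50% higher and 7.10% lower among all kept genes. Their median was 0.11. SV2A, a glycoprotein of synaptic vesicles, had 577 and 882 counts, a ratio of 1.51 (interval 1.36 to 1.68). SYPL2, a synaptophysin relative of muscle, had 5 and 15, a ratio of 2.96 (interval 1.02 to 10.4), and was kept only through the V4 library. The SV2A and SYPL2 calls both ended with total-count scaling, at log2 ratios of 0.56 and 1.24. For SYPL2 this was because its interval then included 1. The SV2A call also ended with a transcript length trend removed (0.54). STX1A, a syntaxin of the plasma membrane and the most abundant of the list per length, had 978 and 901 counts. SYT4, a synaptotagmin of dense-core granules, had 836 and 1161, a ratio of 1.37 (interval 1.25 to 1.5), close to those of CHGB and SCG3.

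ENO2 was the most abundant of the 8 genes in CPM, with 2735 counts (296 CPM) for V1 and 2831 (295 CPM) for V4. The ratio was 1.02 (interval 0.968 to 1.08). The interval excluded no change with a GC trend removed (log2 ratio 0.11, from 0.04 to 0.19). LRRC23 overlaps ENO2 on the same strand by 499 bases in GENCODE but had only 21 and 12 counts. ENO1, the form of enolase found in most tissues, had 771 and 809 counts. Per length the counts placed ENO2 (105 and 104 CPM per kilobase) above ENO1 (32.7 and 33.0) in both libraries. Counts of different genes in this table may not rank their RNA, as PKM of the same pathway was listed at 0 and 3 counts. Whether reads of ENO1 were left out was not tested. Of 17 enolase and glycolysis genes 15 had a row and 12 were kept, with 1 higher, 0 lower and a median of -0.03. Among all kept genes 5.50% were higher and 7.10% lower. HK2, a hexokinase, was the 1 called, at 5 and 18 counts, a ratio of 3.55 (interval 1.27 to 12.2). It was kept only through the V4 library. LDHA, the most abundant per length, had 4011 and 3881.

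INSM1 had 0 counts in both libraries, as did NEUROD1, which encodes a basic helix-loop-helix factor of neuroendocrine tumours. Of 27 transcription and splicing regulators tied to neuroendocrine differentiation 21 had a row and 12 were kept. In that list 2 were higher, 1 lower and 9 neither, against 5.50% higher and 7.10% lower among all kept genes. The median was 0.24. SOX2, a factor of stem and neural cells, had 19 and 38 counts, a ratio of 1.97 (interval 1.11 to 3.62). ONECUT2, known as a driver of neuroendocrine prostate cancer, had 169 and 277, a ratio of 1.62 (interval 1.33 to 1.97), a call that ended with a transcript length trend removed (log2 ratio 0.34) or a GC trend removed (0.57). POU3F2, a neural factor also named BRN2, had 73 and 45, 1.64-fold lower (interval 1.12 to 2.44). INSM2, the relative of INSM1, had 53 and 64 counts, and its interval included 1. SRRM4, a neural splicing factor, had 200 and 260, a ratio of 1.28 (interval 1.06 to 1.55). HES1, a Notch target that restrains neural fate and the most abundant of the list per length, had 4803 and 4489.

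Surface, hormone and diagnostic markers gave 9 rows of 23 genes and 3 kept, with 0 called and a median of -0.24. DLL3, a Notch ligand of neuroendocrine tumours, lay under the filter at 12 and 1 counts, a level 12.2-fold lower (interval 1.80 to 520). It could not be called under that filter and was chosen after its values were seen. BEX1, a gene expressed in brain, had 2369 and 2531 counts. Neuronal cytoskeleton genes had 10 rows of 15 and 6 kept, with 1 lower, 0 higher and a median of -0.18. Among all kept genes 7.10% were lower and 5.50% higher. The 1 lower was INA, an intermediate filament of neurons, at 26 counts with V1 and 0 with V4. It had 2.81 CPM with V1, so it passed the filter only through that library and could only be lower. Against a floor of 3 counts in the V4 library it was 8.79-fold lower. The floor takes the V1 count as exact, and the counting interval reached a smaller fold of 6.65. STMN3, a stathmin of neurons and the most abundant per length, had 1581 and 1363. As a check of the cell type, 9 of 12 luminal prostate and hormone response genes had a row and 6 were kept, among them HOXB13 (621 and 536 counts) and KRT8 (2085 and 1636). In this list FKBP5 alone was called, as higher, at 51 and 98 counts, against 5.50% higher among all kept genes.

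**Figure D3:**
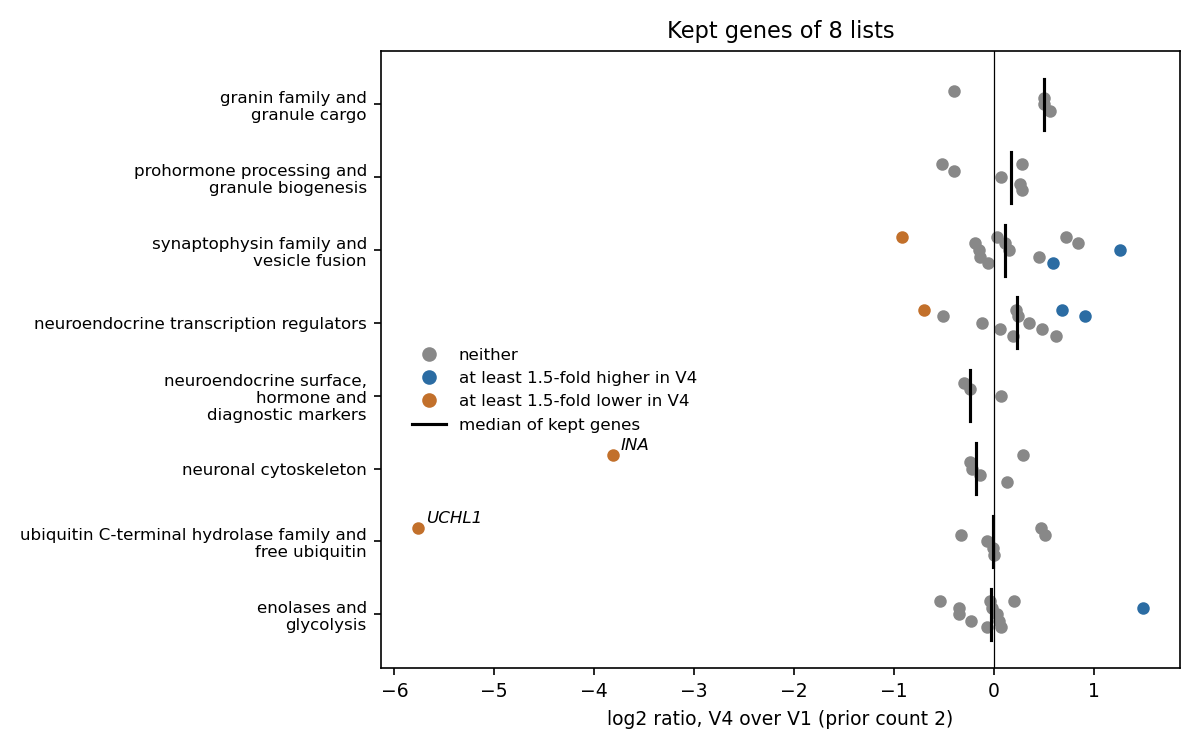
Each point is a kept gene of 1 of 8 lists, placed by its log2 ratio of V4 over V1; colour shows whether it was called and black bars give list medians. The granin median is 0.50 with PCSK1N on the other side of 0. UCHL1 at -5.77 and INA are the genes farthest from 0 and their lists' medians are -0.01 and -0.18. INA passed the filter only through the V1 library.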

How the data were processed

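Poly(A) RNA of 22Rv1 cells was read as 150 bp single ends on a HiSeq2500, per the labels' protocols. The authors deposited whole-number read counts per gene symbol, made on build hg19 according to the submitters' processing notes. The sources used here do not give the aligner, counting program, strand setting, handling of shared reads or whether technical repeats were summed. Columns were tied to samples by name, which left 1 column unused, so planned ratios over the empty vector are missing here. The table had 15512 rows. Counts of 21 repeated symbols were summed, and 22 rows with a calendar date for a symbol stayed unnamed. Genes with a mean of at least 1 CPM were kept (8840, median count 154 and 155). Libraries were scaled by TMM in edgeR 4.0.16 (R 4.3.3), with factors of 1.01 and 0.988. CPM used library totals. Printed ratios carry no prior, log2 ratios a prior count of 2. Intervals came from scipy 1.17.1. Longest transcripts came from GENCODE release 29, and gene order, promoters and older symbols from RefSeq, on GRCh38. Calls and intervals were tested on simulated data. Alternatives were DESeq2 1.42.0 factors, total counts, upper quartile, other filters, priors and thresholds, thinning to the smaller total, and, added after seeing the data, removal of a length or GC trend (lowess, statsmodels 0.14.6). Members and the 12 lists were chosen with earlier results of these data known. The text names all members, up to 4 called genes and the most abundant per length of each list, and the 5 genes nearest UCHL1. Other genes were chosen after their values were seen. Some genes that this rule takes are left out of the text.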

Additional observations from a re-analysis of the deposited data

How the results depend on the processing

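No paired analysis was possible because each group has 1 library, and for the same reason no library could be left out. The log2 ratios of the 6 kept genes were recomputed under 10 alternatives. UCHL1 ranged from -5.83 to -5.55, CHGB from 0.47 to 0.56, SCG2 from 0.47 to 0.62, SCG3 from 0.39 to 0.50 and SYP from 0.07 to 0.24. ENO2 ranged from -0.00 to 0.11, and its highest value, with a GC trend removed, lay outside its counting interval (the cause was not tested). SCG2 was called higher with a transcript length trend removed, at 0.62. The 486 higher and 628 lower genes became 139 and 162 at a mean of at least 10 CPM, where fewer genes are tested, and 186 and 379 at a threshold of 2-fold, a stricter call. Under the other settings they stayed within 1.5 times. No named ratio that was called changed sign under an alternative run. Depth limits genes near the floor of 3 counts, CHGA and INSM1 among them.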
